A study of Mus musculus with 12 samples.

Results

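DNA replication depends on a set of proteins that are made when a cell prepares to divide. The genes described here are 36 listed for DNA replication and the S phase of the cell cycle, from origin licensing to the supply of deoxynucleotides and the copying of DNA methylation and chromatin. The rule named them by gene symbol, with no threshold on a measured value. Of the 36, 35 had a probe set annotated with that gene alone, out of 18194 genes named on the array, and Chaf1a was not analysed here. All 35 passed the filter on low signal, as did 13753 genes in all, so the members that passed are also all the members measured.

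The study measured total RNA of mouse fat cell lines on 12 expression arrays, 3 in each of 4 groups, and its design sets pre-adipocytes against differentiated cells in a white and a brown line. The 3T3-L1 white pre-adipocyte group was taken at day 0, which was 2 days after the cells had become confluent in medium with 10% fetal calf serum. The differentiated 3T3-L1 white adipocyte group was taken at day 10, after 3 days of induction, 2 days with insulin alone and then plain growth medium. Its induction medium held insulin at 1 µg/mL, the phosphodiesterase inhibitor IBMX at 0.5 mM and the glucocorticoid dexamethasone at 1 µM. The brown pre-adipocyte group was likewise taken at day 0, 2 days after confluence, in medium with 10% FBS. The differentiated brown adipocyte group was taken at day 8, also after 3 days of induction, and was kept in insulin and the thyroid hormone T3 up to harvest. Its induction medium held the same IBMX and dexamethasone concentrations, with T3 at 1 nM, insulin at 20 nM and the cyclooxygenase inhibitor indomethacin at 125 µM. T3 and insulin stayed at these concentrations afterwards. All media held 1% penicillin-streptomycin. Line, inducing mixture, insulin at harvest and day of harvest differ together between the lines and cannot be told apart. The origin of the brown line is not given in the sources used here. No label says whether the 3 arrays of a group came from separate cultures, so p-values measure the spread between these samples, which may be technical.

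Signals were linear intensities that the authors had scaled so that every array had the same trimmed mean, and the number of arrays limits their precision. Changes are given as differences of group means of log2(signal + 16), with the standard error (SE) of a limma fit to the 4 groups of 3 arrays. A gene was called higher or lower at a Benjamini-Hochberg adjusted p under 0.05 over the 13753 genes tested. Because the arrays read a mixture of cells at a fixed total signal, fewer cells that express a gene and less of its RNA per cell cannot be told apart.

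The cell labels were checked against marker genes. Adipoq, which encodes the adipocyte hormone adiponectin, had a mean signal of 31.9 ± 16.4 (SD, n = 3) in 3T3-L1 pre-adipocytes and 32117 ± 2551 in 3T3-L1 adipocytes. In the brown line it already stood at 18695 ± 2319 in the group labelled pre-adipocyte, against 26332 ± 497 in adipocytes. Fabp4, a fatty acid carrier of fat cells, was likewise at 27420.5 ± 2567 in the brown pre-adipocytes, so RNA of both adipocyte genes was present there at day 0. Between the pre-adipocyte groups, 9 of 10 adipocyte markers were called higher in the brown line, where 31.3% of the tested genes were. All 9 were called at 2-fold or more, where 11.6% of the tested genes were. The day 0 groups were thus unlike in these markers, and the change in each line is counted from its own day 0. Of the 10 adipocyte markers, 10 were called higher in 3T3-L1 and 8 in brown differentiation, where 30.1% and 27.2% of the tested genes were. At 2-fold or more, 10 and 6 of the markers were called higher, where 13.3% and 9.78% of the tested genes were. Dlk1, a pre-adipocyte marker, read 6452 ± 809 in 3T3-L1 pre-adipocytes, 779 ± 67.7 in 3T3-L1 adipocytes, 981 ± 28.6 in brown pre-adipocytes and 31.8 ± 0.309 in brown adipocytes. Of 5 measured pre-adipocyte markers, 3 were called lower and 2 not called in 3T3-L1 differentiation (Pdgfra went from 2595 to 2969.7), and all 5 were called lower in brown differentiation. Over all tested genes, 31.2% were called lower in 3T3-L1 and 31.6% in brown differentiation. Ucp1, the uncoupling protein of brown fat, was at 382 ± 74.5 in brown adipocytes and at 18.3 or below in the other groups, while Dio2, another brown fat gene, stood between 36.8 and 42.7 in all 4. Of the 7 brown fat markers, 5 were called higher in 3T3-L1 differentiation and 6 in brown differentiation, and Cox8b, a mitochondrial gene of that list, read 5065 in 3T3-L1 and 3685 in brown adipocytes. Markers of macrophages summed to between 390 and 1626 on the 12 arrays, and none of 5 endothelial markers passed the filter on low signal. Among 7 skeletal muscle markers, Mb, the myoglobin gene, read 15336 ± 1650.0 in brown adipocytes, while Myod1 and Myog stood at 30.3 and 17.5. Of these markers 5 were tested, and 3 were called higher in 3T3-L1 and 3 in brown differentiation. The shares over all tested genes were 30.1% and 27.2%. None was called lower in 3T3-L1 and 1 in brown differentiation, where 31.2% and 31.6% of the tested genes were. The ratio of 3' to 5' signal of beta-actin, a measure of RNA integrity, rose from 1.40 to 2.25 with differentiation in 3T3-L1 cells and from 1.49 to 2.42 in brown cells, while that of Gapdh went from 0.861 to 0.828 and from 0.775 to 0.814. The part of RNA integrity in the results was not tested.

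Replication begins when the origin recognition complex, CDC6 and CDT1 load the ring-shaped MCM2-7 helicase onto DNA in G1 phase. CDC45 and the GINS complex then turn the helicase on, polymerases copy the strands with the help of the PCNA clamp and its loader, and flap endonuclease and ligase join the lagging strand fragments. Many of the genes are transcribed at the G1 to S transition by E2F factors, which the retinoblastoma protein family holds in check in cells that have stopped dividing. When 3T3-L1 cells are induced after confluence, they are known to divide a few more times, in what is called mitotic clonal expansion, before they leave the cycle and fill with lipid.

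The start regions of the members are given here because the members moved together in the 3T3-L1 line. RefSeq promoter windows on GRCm38.p6, from 250 bases before to 50 bases after a gene's start, matched 30 of the 36 listed genes. They were searched on both strands for the E2F site in 4 spellings, TTTCCCGC, TTTGGCGC, TTTCGCGC and TTTGCCGC, of which spellings on opposite strands can overlap. A match was found for 13 of the 30 genes (43.3%), against 495 of 11032 tested genes with a window (4.49%) and 2.26% of all 32851 windows. The lines below print 100 bases upstream of the start for 6 of the 13, read 5′ to 3′ along the gene's strand, with the E2F matches in capitals. Mcm5, Uhrf1 and Mcm6 are shown for the size of their change in 3T3-L1 cells, Cdc6 as a licensing gene, and Pola1 and Rfc3 as members that were called in opposite directions in the brown line.
Mcm5 (chr8:75109312-75109411, forward strand): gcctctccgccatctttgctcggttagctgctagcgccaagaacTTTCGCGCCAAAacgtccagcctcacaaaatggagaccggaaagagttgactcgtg
Uhrf1 (chr17:56304082-56304181, forward strand): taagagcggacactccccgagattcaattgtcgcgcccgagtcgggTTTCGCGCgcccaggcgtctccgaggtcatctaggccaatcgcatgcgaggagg
Mcm6 (chr1:128359731-128359830, reverse strand): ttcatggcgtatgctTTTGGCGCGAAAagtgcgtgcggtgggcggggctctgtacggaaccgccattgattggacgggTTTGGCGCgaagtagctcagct
Cdc6 (chr11:98907967-98908066, forward strand): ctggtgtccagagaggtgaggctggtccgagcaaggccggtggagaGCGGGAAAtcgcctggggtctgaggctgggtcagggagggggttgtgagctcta
Pola1 (chrX:93632240-93632339, reverse strand): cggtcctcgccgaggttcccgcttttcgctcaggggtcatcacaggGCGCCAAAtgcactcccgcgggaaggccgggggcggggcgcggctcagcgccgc
Rfc3 (chr5:151651209-151651308, reverse strand): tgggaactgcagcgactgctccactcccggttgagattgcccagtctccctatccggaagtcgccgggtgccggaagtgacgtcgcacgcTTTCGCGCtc
In Mcm5 the run of capitals holds TTTCGCGC and, overlapping it on the other strand, TTTGGCGC. Mcm6 holds such an overlapping pair and a further TTTGGCGC nearer to the start. The match begins 138 bases before the start in both Cdc6 and Pola1, 185 bases before it in Uhrf1 and 10 bases before it in Rfc3. These are matches of letters and not measured binding sites.

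Mitotic genes had another pattern of letters near their starts. The CHR element, TTTGAA, through which the DREAM complex acts, was found for 13 of 18 mitosis genes (72.2%), 4 of the 30 replication genes (13.3%) and 14.4% of the tested genes, on either strand. No E2F spelling was found for any of the 18 mitosis genes, and 12 of 41 other replication and S phase genes (29.3%) had one. The CCAAT box, where NF-Y binds, was found for 19 of the 30 members (63.3%), for 83.3% of the mitosis genes and for 42.4% of the tested genes. With the bases after the start left out, 9 of the 30 members (30.0%) and 3.75% of the tested genes kept an E2F match, while 6 of the 18 mitosis genes (33.3%), 4 of the 30 members (13.3%) and 12.8% of the tested genes kept a CHR. The median change in 3T3-L1 cells was -3.02 for the 13 members with an E2F match in the full window and -2.34 for the 16 measured members with a window and no match, with overlapping ranges of -4.94 to -2.19 and -3.91 to -1.34.

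**Figure D1:**
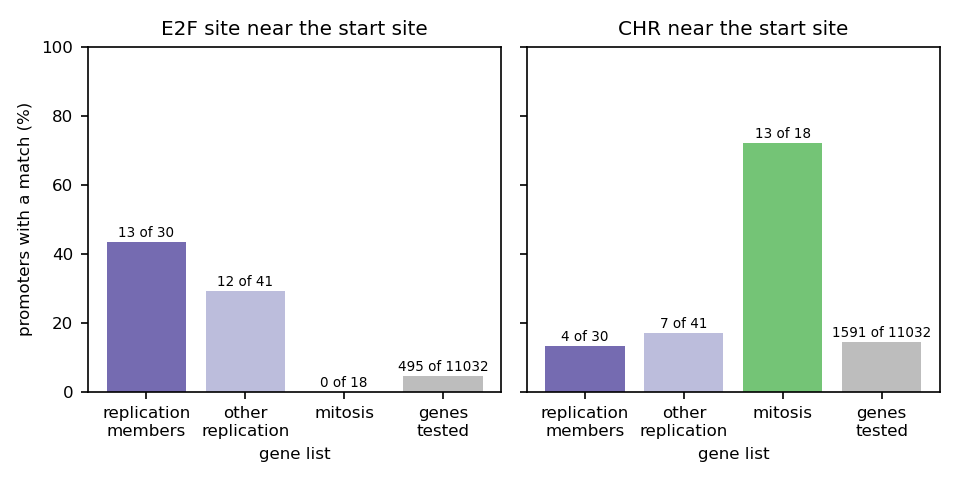
Share of genes (vertical axis, percent) with an E2F site or a CHR element between 250 bases before and 50 bases after the start, for the replication members, other replication and S phase genes, mitosis genes and all tested genes, with the counts above the bars. The E2F site was found for 13 of 30 members and the CHR for 13 of 18 mitosis genes.

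In 3T3-L1 cells every measured replication gene fell with differentiation. All 35 members were called lower and none higher, where 31.2% of the tested genes were called lower and 30.1% higher. The median change of the members was -2.61 on the log2 scale, beside 0.021 over all tested genes. The fall was at least 2.67-fold in signal for each member, over 4-fold on the log2 scale for 27 and over 8-fold for 13. In every member all 3 adipocyte arrays lay below all 3 pre-adipocyte arrays, which held for 33.5% of the tested genes. The adjusted p of limma lay between 7.88e-12 and 9.91e-05 over the members.

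In brown cells no member reached a 2-fold change on the scale of log2(signal + 16), though the ratio of mean signals of Tyms was 2.03-fold. Of the 35, 6 were called higher, 10 lower and 19 neither, where 27.2% of the tested genes were called higher and 31.6% lower. The median change was -0.0018, beside -0.031 over all tested genes. The changes ran from -0.94 for Tyms to 0.75 for Cdt1. The 95% confidence intervals of 33 members lay wholly within 2-fold, and those of the 19 uncalled members lay between -0.62 and 0.47. Without the second brown pre-adipocyte array, 6 members were called lower instead of 10, where 29.1% of all genes were. With arrays scaled to the hybridization controls, which moved the median of all genes to -0.22 in brown cells, 2 members were called higher and 15 lower, where 19.2% of all genes were called higher and 40.9% lower. The calls of Chaf1b, Pola1, Pole and Rfc4 as higher were the 4 lost under that scaling. Calls as lower were gained for Mcm5, Pold1, Rrm1, Rrm2 and Tk1 (-0.29 to -0.22, limma adjusted p of 0.00829 to 0.0452). With each gene's probe sets averaged, the brown calls of Chaf1b, Mcm4, Pola1, Prim2, Tyms and Uhrf1 were lost (limma adjusted p of 0.0956 to 0.537). For Pola1, Prim2 and Tyms the average includes probe sets that lay above the 40th percentile of signal on none of the arrays. Under that setting Mcm2 was called higher (0.225, limma adjusted p = 0.0438).

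The difference between the lines was itself tested, as the brown change minus the 3T3-L1 change. It was positive and called for all 35 members, where 23.6% of the tested genes were called higher and 27.5% lower. The median difference was 2.55, beside -0.052 over all tested genes, and the values ran from 1.03 for Mcm10 to 4.87 for Mcm5. Over the 35 members the size of the change in 3T3-L1 cells had almost no relation to that in brown cells (Pearson's r -0.067 and Spearman's rho -0.015 across genes of 1 array set, given as a description).

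**Figure D2:**
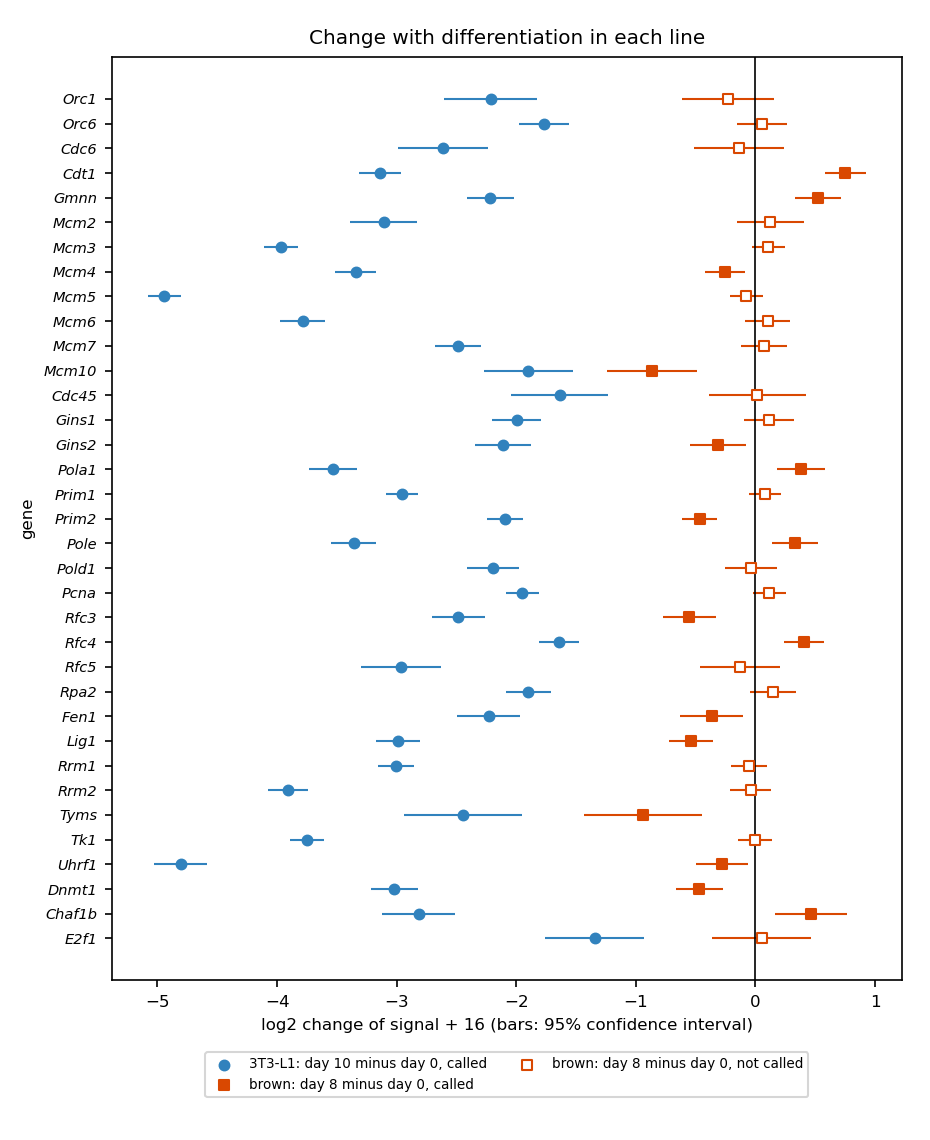
Change with differentiation (horizontal axis, log2 of signal + 16, with 95% confidence intervals) of each of the 35 members, circles for 3T3-L1 cells and squares for brown cells. Filled symbols mark calls. The circles run from -4.94 to -1.34, and the squares lie between -0.94 and 0.75.

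Across the 4 groups, the 3T3-L1 adipocytes had the lowest mean for all 35 members. For 14 members the order from high to low was brown adipocytes, brown pre-adipocytes, 3T3-L1 pre-adipocytes and 3T3-L1 adipocytes. For 9 others the brown pre-adipocytes came first and the brown adipocytes second. The median signal over the members lay between 2147 and 2384 on the 3T3-L1 pre-adipocyte arrays and between 275 and 309 on the 3T3-L1 adipocyte arrays. It lay between 3103 and 3416 on the brown pre-adipocyte arrays and between 2947 and 3102 on the brown adipocyte arrays. The medians of the brown arrays lay close together and above those of all 3T3-L1 arrays.

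**Figure D3:**
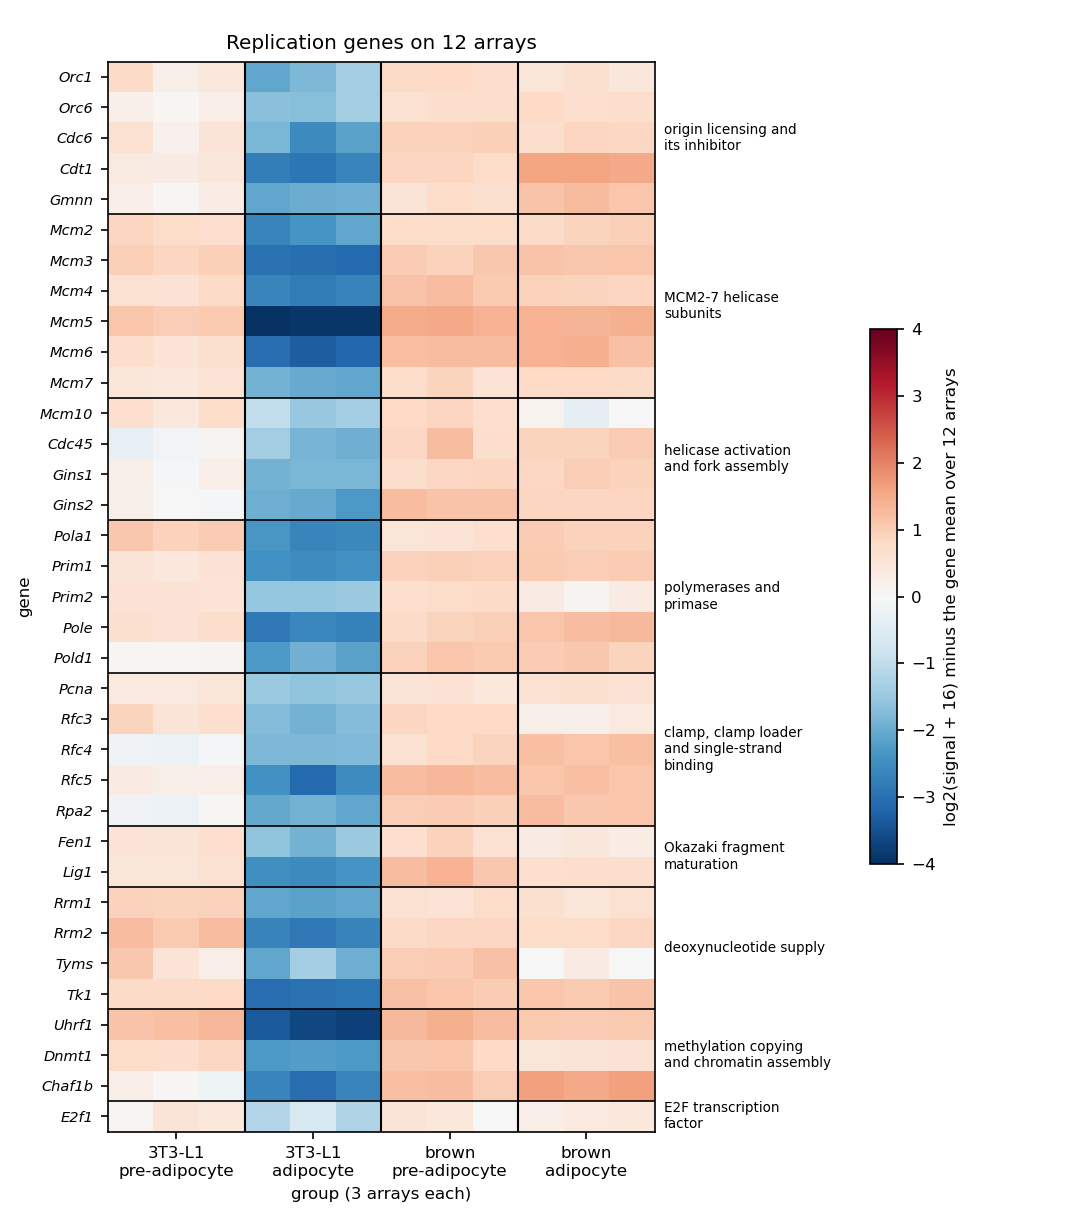
Log2(signal + 16) of the 35 members (rows, by role) on the 12 arrays (columns, 3 per group), as the difference from each gene's mean over the arrays, blue for lower and red for higher. The 3 columns of 3T3-L1 adipocytes are blue for all 35 members.

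Compared directly, brown adipocytes held more of every member than 3T3-L1 adipocytes. All 35 members were called higher, where 30.1% of the tested genes were called higher and 29.5% lower in brown adipocytes. The median difference was 3.11, beside 0.0016 over all tested genes, and the ratio of mean signals ran from 2.44-fold for Mcm10 to 42.2-fold for Mcm5. No brown adipocyte array overlapped a 3T3-L1 adipocyte array in any member, which held in this direction for 33.0% of the tested genes.

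At day 0, members that differed between the lines were mostly higher in the brown line. In pre-adipocytes 21 members were called higher in the brown line, 3 lower and 11 neither, where 31.3% of the tested genes were called higher and 23.8% lower. The median difference was 0.42, beside 0.072 over all tested genes. Only Gins2, Rpa2, Chaf1b and Cdc45 were called at 2-fold or more, with ratios of 2.22, 2.15, 2.15 and 2.07, where 11.6% of the tested genes were called higher at that size. These 4 of 35 members are a share near that of all genes. The 3 called lower were Pola1, Rrm1 and Rrm2. This comparison moved with the scaling of the arrays: with all array medians set equal, the median over all genes became -0.18, 10 members were called higher and 4 lower, and 19.8% and 36.0% of all genes. The calls of Cdc6, Mcm7, Pole and Dnmt1 as higher were each lost when some single arrays, the second 3T3-L1 and the second brown pre-adipocyte array among them, were left out (limma adjusted p of 0.0526 to 0.151).

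Among the licensing factors, Cdt1 showed the widest difference between the lines. Cdt1, which brings the MCM complex to origins, read 6053, 5910.0 and 6542 on the 3T3-L1 pre-adipocyte arrays, 683, 631 and 749 on the 3T3-L1 adipocyte arrays, 8603, 8684 and 7831 on the brown pre-adipocyte arrays and 14344, 14261 and 13701 on the brown adipocyte arrays. The groups did not overlap, the brown adipocyte arrays being highest and the 3T3-L1 adipocyte arrays lowest. Its change was -3.14 ± 0.078 (SE, n = 3 and 3; limma adjusted p = 3.32e-10) in 3T3-L1 cells and 0.75 ± 0.078 (limma adjusted p = 1.41e-05) in brown cells, the highest rise of a member in brown cells. Gmnn encodes geminin, the protein that binds CDT1 and blocks a second round of licensing. It moved in the same directions, by -2.22 ± 0.087 in 3T3-L1 cells and 0.52 ± 0.087 in brown cells (limma adjusted p = 7.71e-09 and 0.000448).

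Orc6, a subunit of the origin recognition complex, had the smallest difference between the lines in this role. It read 2802, 2560.2 and 2936 on the 3T3-L1 pre-adipocyte arrays, 748, 739.9 and 922 on the 3T3-L1 adipocyte arrays, 3721, 3989 and 3950.2 on the brown pre-adipocyte arrays and 4226, 3914 and 3987 on the brown adipocyte arrays. The brown groups overlapped, and the 3T3-L1 adipocyte arrays lay below the rest. The change was -1.77 ± 0.092 (limma adjusted p = 6.06e-08) in 3T3-L1 cells and 0.056 ± 0.092 (limma adjusted p = 0.631) in brown cells. Orc1, the subunit that is itself cell cycle regulated, fell by 5.67-fold in 3T3-L1 cells, where 1 of its 3 adipocyte arrays was below the 40th percentile of signal. Its changes were -2.22 in 3T3-L1 and -0.23 in brown cells. Another, dimmer probe set of Orc1, above that percentile on all 12 arrays, gave -0.62 and 0.24, so the sizes depend on the probe set. Cdc6, the other loading factor, fell by 6.70-fold. Neither was called in brown cells (limma adjusted p = 0.282 and 0.511).

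The 6 subunits of the MCM2-7 helicase had the largest median fall among the roles of the members, with a median of -3.57 in 3T3-L1 cells and 0.087 in brown cells. Mcm5 changed most of all members. It read 7008, 6372 and 6693 on the 3T3-L1 pre-adipocyte arrays, 195, 206 and 205 on the 3T3-L1 adipocyte arrays, 9191, 9343 and 8459 on the brown pre-adipocyte arrays and 8527, 8325 and 8748 on the brown adipocyte arrays. The 3T3-L1 adipocyte arrays stood 33.1-fold below the pre-adipocyte mean, and the brown groups overlapped. The change was -4.94 ± 0.063 (limma adjusted p = 7.88e-12) in 3T3-L1 cells and -0.075 ± 0.063 (limma adjusted p = 0.332) in brown cells. With scaling to the hybridization controls the brown change of Mcm5 was called lower (-0.29, limma adjusted p = 0.00829). It was also called with quantile normalization (-0.18, limma adjusted p = 0.0384) and with probe sets of the more specific design (-0.19, limma adjusted p = 0.0393).

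Mcm7 had the smallest difference between lines of the 6. It read 10374, 9836 and 10890.5 on the 3T3-L1 pre-adipocyte arrays, 1964, 1812 and 1743 on the 3T3-L1 adipocyte arrays, 12192, 13650.3 and 10897 on the brown pre-adipocyte arrays and 12960.4, 12749 and 12699 on the brown adipocyte arrays. Here too the 3T3-L1 adipocyte arrays were apart from the others and the brown groups overlapped, with changes of -2.48 ± 0.087 and 0.070 ± 0.087 (limma adjusted p = 3.4e-09 and 0.519). The falls of the other 4 subunits in 3T3-L1 cells were 8.84-fold for Mcm2, 16.3-fold for Mcm3, 10.3-fold for Mcm4 and 14.2-fold for Mcm6. The fall was thus unequal over the 6. Under the main setting Mcm4 was the 1 subunit called in brown cells, at -0.26 ± 0.075 (limma adjusted p = 0.014). That call was lost without the second brown pre-adipocyte array (limma adjusted p = 0.0562) and with the mean of its probe sets, at -0.12 (limma adjusted p = 0.298). Mcm2 was called higher in brown cells with the mean of its probe sets, at 0.225 (limma adjusted p = 0.0438).

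**Figure D4:**
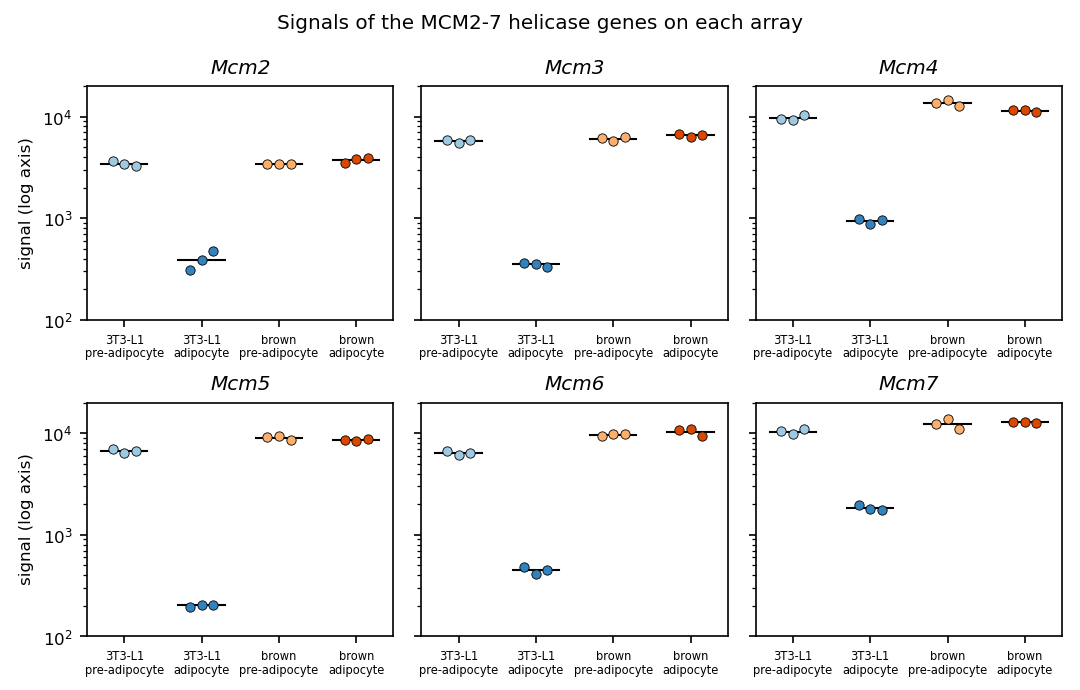
Signal of the MCM2-7 genes on each array (vertical log axis, arbitrary intensity units), with points for arrays and lines for the means of 3. The 3T3-L1 adipocyte points lie below all others in each panel, at 195 to 206 for Mcm5 and at 1743 to 1964 for Mcm7.

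The 4 factors that turn the helicase on had a median change of -1.95 in 3T3-L1 cells and -0.15 in brown cells. Gins1, a subunit of the GINS complex, had the widest difference between lines in this role and read 1286, 1048 and 1321 on the 3T3-L1 pre-adipocyte arrays, 284, 298 and 294 on the 3T3-L1 adipocyte arrays, 1779, 1973 and 1976 on the brown pre-adipocyte arrays and 1947, 2162 and 2088 on the brown adipocyte arrays. Its 3T3-L1 adipocyte arrays were lowest and its brown groups overlapped. The change was -1.995 ± 0.092 (limma adjusted p = 2.4e-08) in 3T3-L1 cells and 0.11 ± 0.092 (limma adjusted p = 0.322) in brown cells. Gins2, of the same complex, fell in both lines, by 4.55-fold and 1.24-fold, the latter with a limma adjusted p of 0.0268. That call was lost when any of the 6 brown arrays but the third pre-adipocyte array was left out (adjusted p of 0.0527 to 0.0765). Cdc45, the partner of GINS at the fork, fell by 3.30-fold in 3T3-L1 cells and stood at 0.017 in brown cells. Its other, dimmer probe set lay above the 40th percentile on all 12 arrays. That probe set gave -0.24 in 3T3-L1 cells and 0.79 in brown cells (brown means of 123 and 220), so the sizes depend on the probe set.

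Mcm10, which helps start the fork and is no part of the ring, had the smallest difference between the lines of all members. It read 642, 548 and 672 on the 3T3-L1 pre-adipocyte arrays, 196, 129.7 and 144 on the 3T3-L1 adipocyte arrays, 713, 748 and 643 on the brown pre-adipocyte arrays and 443, 301 and 403 on the brown adipocyte arrays. It fell in both lines, so that brown adipocytes lay below brown pre-adipocytes without overlap. The changes were -1.90 ± 0.17 and -0.86 ± 0.17 (limma adjusted p = 3.34e-06 and 0.00124), and their difference was 1.03 ± 0.24 (limma adjusted p = 0.00432). The difference was not called with the mean of all its probe sets (0.49, limma adjusted p = 0.172) or with probe sets of the more specific design (0.32, limma adjusted p = 0.407). The other probe sets of Mcm10 were dim, above the 40th percentile on 1 and on 4 of the 12 arrays.

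All 5 polymerase and primase genes fell in 3T3-L1 cells, with a median of -2.96. Pola1 encodes the catalytic subunit of polymerase alpha, which lays down the first DNA on each primer. It read 3437, 3113 and 3327 on the 3T3-L1 pre-adipocyte arrays, 309, 247 and 258 on the 3T3-L1 adipocyte arrays, 2270.0, 2403 and 2586 on the brown pre-adipocyte arrays and 3306, 3102 and 3073 on the brown adipocyte arrays. In the 3T3-L1 adipocytes it was far below the rest, and the brown adipocytes lay above the brown pre-adipocytes without overlap. The change was -3.53 ± 0.090 in 3T3-L1 cells and 0.38 ± 0.090 in brown cells (limma adjusted p = 3.89e-10 and 0.00397). The brown call was lost with the mean of its probe sets (0.13, limma adjusted p = 0.537) and with scaling to the hybridization controls (0.17, limma adjusted p = 0.105). The other probe set of Pola1 in that mean lay above the 40th percentile on none of the arrays. Pole, the leading strand polymerase, had changes of -3.36 and 0.33, the latter not called with that scaling (0.12, limma adjusted p = 0.287). Pold1, the lagging strand polymerase, fell by 4.92-fold in 3T3-L1 cells, and in brown cells its value was -0.035 with a 95% confidence interval of -0.25 to 0.18. Its other probe set, above the 40th percentile on all 12 arrays, gave -0.45 in brown cells (means of 871 and 631). With scaling to the hybridization controls the brown change of Pold1 was -0.25 and was called (limma adjusted p = 0.0452).

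Primase, which makes the RNA primers, has a small and a large subunit, of which the large one was called in the brown line. Prim2, the large subunit, had the smallest difference between lines in this role and read 1645, 1636 and 1604 on the 3T3-L1 pre-adipocyte arrays, 366, 361 and 379 on the 3T3-L1 adipocyte arrays, 1747, 1829 and 1870.1 on the brown pre-adipocyte arrays and 1371, 1191 and 1369 on the brown adipocyte arrays. The 3T3-L1 adipocyte arrays were lowest, and the brown adipocyte arrays lay below the brown pre-adipocyte arrays. Its change was -2.10 ± 0.067 in 3T3-L1 cells and -0.47 ± 0.067 in brown cells (limma adjusted p = 1.84e-09 and 0.000153), the latter lost with the mean of its probe sets (-0.17, limma adjusted p = 0.183). That mean includes a probe set that lay above the 40th percentile on none of the arrays. The remaining probe set of Prim2, above it on all 12, gave -0.31 in brown cells. Prim1, the small catalytic subunit, changed by -2.96 ± 0.060 and 0.082 ± 0.060 (limma adjusted p = 9.94e-11 and 0.268). Whether the 2 subunits differed from each other in brown cells was not tested.

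At the fork, Rfc5, a subunit of the clamp loader, showed the widest difference between the lines in its role. It read 1722, 1601 and 1653 on the 3T3-L1 pre-adipocyte arrays, 241, 143 and 226 on the 3T3-L1 adipocyte arrays, 3228, 3416 and 3222 on the brown pre-adipocyte arrays and 2947, 3119 and 2948 on the brown adipocyte arrays. The brown arrays stood above both 3T3-L1 groups, and its change was -2.96 ± 0.15 in 3T3-L1 cells and -0.13 ± 0.15 in brown cells (limma adjusted p = 4.53e-08 and 0.488). Rfc3, another subunit, had the smallest difference and read 1992, 1524 and 1714 on the 3T3-L1 pre-adipocyte arrays, 309, 275 and 307 on the 3T3-L1 adipocyte arrays, 1955, 1863 and 1836 on the brown pre-adipocyte arrays and 1241, 1213 and 1385 on the brown adipocyte arrays. Its brown adipocyte arrays lay below the brown pre-adipocyte arrays, with changes of -2.49 ± 0.10 and -0.55 ± 0.10 (limma adjusted p = 8.68e-09 and 0.000749). Rfc4, also a subunit of the loader, rose in brown cells by 0.41 ± 0.076 (limma adjusted p = 0.000948), a call that was lost with scaling to the hybridization controls (0.19, limma adjusted p = 0.0564).

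Pcna encodes the sliding clamp that holds polymerases on DNA and is often used as a marker of proliferating cells. Its mean signal was 17873 ± 665 (SD, n = 3) in 3T3-L1 pre-adipocytes, 4619 ± 172 in 3T3-L1 adipocytes, 19091 ± 1018 in brown pre-adipocytes and 20648 ± 354 in brown adipocytes. It fell by 3.87-fold in 3T3-L1 cells and was not called in brown cells (limma adjusted p = 0.141). Rpa2, a subunit of the protein that coats single-stranded DNA, fell by 3.93-fold in 3T3-L1 cells and was 2.15-fold higher in brown than in 3T3-L1 pre-adipocytes.

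Both genes that finish lagging strand fragments fell in both lines, and by more in 3T3-L1 cells. Lig1, the ligase that seals the nicks, read 1727, 1714 and 1851 on the 3T3-L1 pre-adipocyte arrays, 211, 193 and 223 on the 3T3-L1 adipocyte arrays, 2868, 3204 and 2615 on the brown pre-adipocyte arrays and 1965, 1972 and 1999.6 on the brown adipocyte arrays. The 4 groups did not overlap. The change was -2.99 ± 0.083 in 3T3-L1 cells and -0.54 ± 0.083 in brown cells (limma adjusted p = 7e-10 and 0.000246). Fen1, the nuclease that trims the flaps, read 3352, 3277 and 3667 on the 3T3-L1 pre-adipocyte arrays, 753, 606 and 815 on the 3T3-L1 adipocyte arrays, 3689.6, 4343 and 3506 on the brown pre-adipocyte arrays and 2883, 3167 and 2862 on the brown adipocyte arrays. Its brown adipocyte arrays lay below the brown pre-adipocyte arrays, and its change there, -0.37 ± 0.12, had a limma adjusted p of 0.0216. That call was lost without the second brown pre-adipocyte array (adjusted p = 0.0844) and without brown adipocyte array 1 or 3 (0.0613 and 0.0643). In 3T3-L1 cells the change of Fen1 was -2.23 ± 0.12 (limma adjusted p = 6.66e-08).

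Of the 4 genes that supply deoxynucleotides, all fell in 3T3-L1 cells and 1 was called in the brown line. Rrm2, the S phase subunit of ribonucleotide reductase, read 11614, 10226 and 11718 on the 3T3-L1 pre-adipocyte arrays, 757, 666 and 766 on the 3T3-L1 adipocyte arrays, 8451, 8715 and 8724 on the brown pre-adipocyte arrays and 8181, 8283 and 8760.2 on the brown adipocyte arrays. The 3T3-L1 pre-adipocyte arrays were highest and the 3T3-L1 adipocyte arrays lowest, and the brown groups overlapped. The change was -3.91 ± 0.077 in 3T3-L1 cells and -0.038 ± 0.077 in brown cells (limma adjusted p = 8.33e-11 and 0.698). Its other probe sets, above the 40th percentile on all 12 arrays, parted in brown cells. One gave -0.55 (means of 1484 and 1006) and the other 0.042 (means of 4837 and 4978). Rrm1, the large subunit of the enzyme, fell by 8.17-fold in 3T3-L1 cells, and Tk1, the thymidine kinase of S phase, by 14.7-fold. In brown cells the value of Tk1 was -0.0018, with a 95% confidence interval of -0.14 to 0.14. With scaling to the hybridization controls Tk1, Rrm1 and Rrm2 were called lower in brown cells, at -0.22, -0.27 and -0.25 (limma adjusted p = 0.0412, 0.0133 and 0.0234).

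Tyms, thymidylate synthase, had the smallest difference between lines in this role. It read 249.8, 166 and 135 on the 3T3-L1 pre-adipocyte arrays, 13.4, 31.5 and 16.4 on the 3T3-L1 adipocyte arrays, 232, 235 and 263 on the brown pre-adipocyte arrays and 110.5, 139 and 111 on the brown adipocyte arrays. All 3 of its 3T3-L1 adipocyte arrays were below the 40th percentile of signal, so the size of its fall there depends on the processing and ran from -3.15 to -0.94 over 28 settings. In brown cells the groups of this probe set did not overlap. The changes were -2.44 ± 0.22 and -0.94 ± 0.22 (limma adjusted p = 4.02e-06 and 0.00415), and their difference was 1.51 ± 0.31 (limma adjusted p = 0.00242). With the mean of its probe sets the brown change was -0.35 and was not called (limma adjusted p = 0.0956). Its other probe set that passed the filter read a mean of 152 in brown pre-adipocytes and 158 in brown adipocytes. With the mean of its probe sets the difference between lines was 0.59 and was not called (limma adjusted p = 0.0578). That mean includes probe sets that lay above the 40th percentile on none of the arrays. The other passing probe set by itself gave -1.30 in 3T3-L1 cells, with an adipocyte mean of 23.8, and 0.054 in brown cells.

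DNA methylation and chromatin must be copied along with the sequence, and the 3 measured genes for this had a median change of -3.02 in 3T3-L1 cells. Uhrf1, which guides the methyltransferase to newly copied DNA, read 4859, 5046 and 5465 on the 3T3-L1 pre-adipocyte arrays, 197, 159.7 and 149 on the 3T3-L1 adipocyte arrays, 5351, 5908 and 5109.8 on the brown pre-adipocyte arrays and 4503, 4428 and 4501 on the brown adipocyte arrays. The 3T3-L1 adipocyte arrays stood 30.4-fold below the pre-adipocyte mean. The change was -4.81 ± 0.098 in 3T3-L1 cells and -0.28 ± 0.098 in brown cells (limma adjusted p = 9.94e-11 and 0.0308). The brown call was lost when any brown array but the third pre-adipocyte array was left out (limma adjusted p of 0.0570 to 0.110), and with the mean of its probe sets (-0.14, limma adjusted p = 0.355).

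Dnmt1, the methyltransferase itself, had the smallest difference between lines in this role and read 3215, 3139.7 and 3476 on the 3T3-L1 pre-adipocyte arrays, 384, 401 and 385 on the 3T3-L1 adipocyte arrays, 4065, 4206 and 3358 on the brown pre-adipocyte arrays and 2692, 2777 and 2887 on the brown adipocyte arrays. Its brown adipocyte arrays lay below those of the brown pre-adipocytes, and the 3T3-L1 adipocyte arrays were lowest. The change was -3.02 ± 0.087 in 3T3-L1 cells and -0.47 ± 0.087 in brown cells (limma adjusted p = 9.2e-10 and 0.000936). Chaf1b, a subunit of the factor that places histones on new DNA, went the other way in the brown line, at 0.46 ± 0.14 (limma adjusted p = 0.0136). In 3T3-L1 cells its change was -2.82 ± 0.14. Without brown pre-adipocyte array 3 its brown change was not called (0.39, limma adjusted p = 0.0515), nor with the mean of its probe sets (0.19, limma adjusted p = 0.263) or scaling to the hybridization controls (0.25, limma adjusted p = 0.173). The other probe set of Chaf1b was dim, with group means from 30.5 to 47.5.

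E2f1, the transcription factor, had the smallest fall of all members in 3T3-L1 cells. It read 336, 459 and 434 on the 3T3-L1 pre-adipocyte arrays, 131, 199 and 130.2 on the 3T3-L1 adipocyte arrays, 459, 434 and 317 on the brown pre-adipocyte arrays and 389, 419.8 and 435 on the brown adipocyte arrays. The 3T3-L1 adipocyte arrays lay below the rest, and the other groups overlapped. The change was -1.34 ± 0.19 (limma adjusted p = 9.91e-05) in 3T3-L1 cells and 0.054 ± 0.19 (limma adjusted p = 0.826) in brown cells. Its probe sets disagreed: in place of this one, the probe set of the more specific design gave -0.41 (limma adjusted p = 0.125) in 3T3-L1 cells and 0.71 (limma adjusted p = 0.0164) in brown cells.

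For the other members several probe sets could also be compared. The 35 members had 78 probe sets, and 27 members had more than 1. Of the 43 that did not stand for their gene, 35 passed the filter on low signal. All 35 were lower in 3T3-L1 adipocytes than in 3T3-L1 pre-adipocytes and higher in brown than in 3T3-L1 adipocytes, and 34 of them had a positive difference between the lines. The exception was a dim probe set of E2f1.

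Genes of related lists were measured on the same arrays. Of 52 other replication and S phase genes tested, 45 were called lower and 4 higher in 3T3-L1 cells, while 10 were called lower and 17 higher in brown cells. The shares over all tested genes were 31.2% lower and 30.1% higher in 3T3-L1 cells, and 31.6% and 27.2% in brown cells. The 17 called higher in brown cells are thus a share near that of all genes. The medians of the 52 were -1.42 and 0.063. Dtl, part of the ubiquitin ligase that destroys CDT1 in S phase, went from a mean of 1072 to 57.3 in 3T3-L1 cells (-4.01 ± 0.32, limma adjusted p = 1.47e-06) and from 1523 to 1696 in brown cells (limma adjusted p = 0.709). Pole2, the second subunit of polymerase epsilon, changed by -3.71 ± 0.12 in 3T3-L1 cells and -0.26 ± 0.12 in brown cells (limma adjusted p = 1.52e-09 and 0.0796).

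Mitosis genes fell in both lines. All 19 tested were called lower in each line, where 31.2% and 31.6% of all tested genes were. The medians of the 19 were -3.63 in 3T3-L1 cells and -0.95 in brown cells. Brown adipocytes kept a median of 51.6% of the pre-adipocyte signal of these genes, with a range from 28.4% to 67.8%, against a median of 99.8% over the 35 replication members, with a range from 49.3% to 168%. In 3T3-L1 adipocytes the medians were 7.72% and 12.5%. The difference between the 2 lists in brown cells is given as a description and was not tested.

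Mki67, the gene of the proliferation marker Ki-67, read 6281, 6467 and 6943 on the 3T3-L1 pre-adipocyte arrays, 505, 396 and 425 on the 3T3-L1 adipocyte arrays, 7677, 8424 and 7111 on the brown pre-adipocyte arrays and 4899, 5376 and 5464 on the brown adipocyte arrays. The brown adipocytes lay below the brown pre-adipocytes and above all 3T3-L1 adipocytes. Its change was -3.85 ± 0.10 in 3T3-L1 cells and -0.56 ± 0.10 in brown cells (limma adjusted p = 4.48e-10 and 0.000744). Top2a, the topoisomerase that untangles chromosomes, changed by -3.32 ± 0.064 and -0.80 ± 0.064, and Cdc20, an activator of the anaphase promoting complex, by -4.31 ± 0.070 and -0.74 ± 0.070. All 4 of these changes were called (limma adjusted p = 7.73e-11, 2.05e-06, 2.99e-11 and 7.06e-06). With probe sets of the more specific design the brown change of Top2a was -0.38 and was not called (limma adjusted p = 0.0982).

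**Figure D5:**
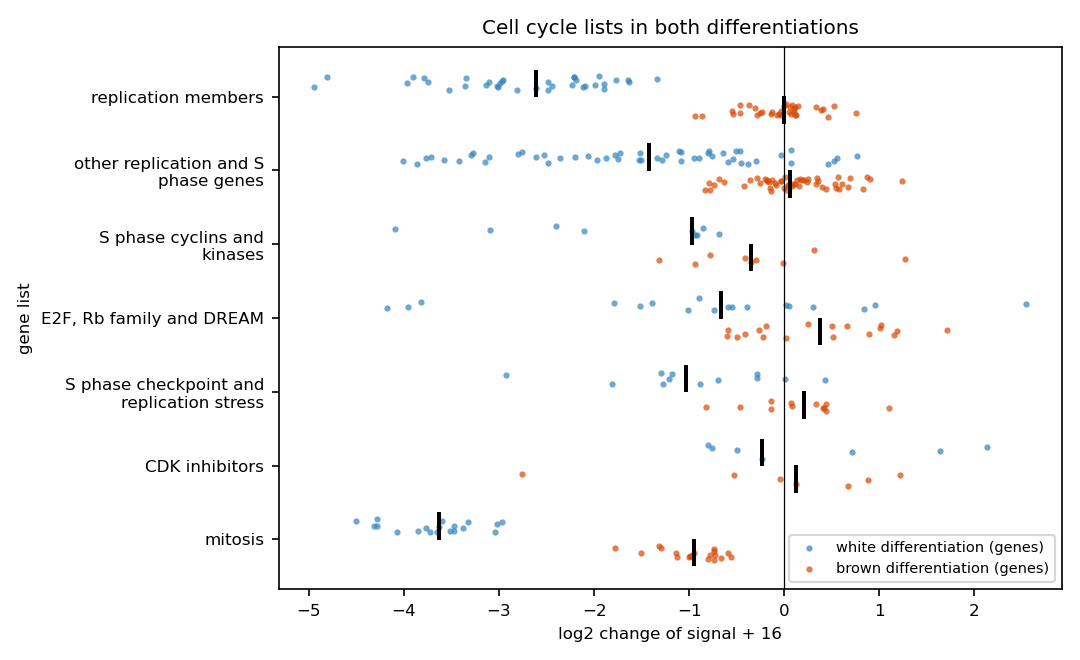
Change with differentiation (horizontal axis, log2 of signal + 16) of each tested gene in 7 lists, blue for 3T3-L1 and orange for brown cells, with black bars at the medians. In brown cells the median is -0.0018 for the replication members and -0.95 for mitosis, where all 19 points lie below 0.

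Cyclins and kinases of S phase were lower in 3T3-L1 adipocytes without exception, with 9 of 9 tested called lower, while in brown cells 2 were called higher and 6 lower. Over all tested genes, 31.2% were called lower in 3T3-L1 cells, and 27.2% higher and 31.6% lower in brown cells. Ccne2, an E cyclin that starts S phase, read 1794, 1379 and 1715 on the 3T3-L1 pre-adipocyte arrays, 844, 784 and 1064 on the 3T3-L1 adipocyte arrays, 2636, 2104 and 3067 on the brown pre-adipocyte arrays and 6388, 6341 and 5920.1 on the brown adipocyte arrays. It fell by 1.81-fold in 3T3-L1 cells and rose by 2.39-fold in brown cells (limma adjusted p = 0.000824 and 5.78e-05), where all 3 adipocyte arrays lay above every other array. Ccne1, the other E cyclin, changed by -0.69 ± 0.11 and -0.016 ± 0.11 (limma adjusted p = 0.000217 and 0.909). Ccna2, the cyclin of S and G2 phase, fell in both lines, by 17.8-fold in 3T3-L1 and 1.92-fold in brown cells (limma adjusted p = 4.66e-11 and 1.46e-06).

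The E2F and retinoblastoma families held members that moved alike and members that parted. Of 18 tested genes in this list, with the DREAM complex included, 11 were called lower and 3 higher in 3T3-L1 cells, and 5 lower and 9 higher in brown cells. The shares over all tested genes were 31.2% and 30.1%, and 31.6% and 27.2%, in the same order. Rb1, the retinoblastoma gene, rose in both lines, from a mean of 527 to 3153 in 3T3-L1 cells and from 1016 to 3365 in brown cells (limma adjusted p = 2.63e-09 and 6.33e-08). Rbl1, which encodes p107, fell in 3T3-L1 cells, by 1.89-fold, and rose by 1.85-fold in brown cells (limma adjusted p = 4.9e-07 and 7.4e-07). With the mean of its probe sets the brown value was 0.26 (limma adjusted p = 0.281). Rbl2, which encodes p130, had a log2 change of 0.021 in 3T3-L1 cells and rose by 0.50 in brown cells (limma adjusted p = 0.812 and 8.78e-05).

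Of the repressor E2F genes, E2f7 and E2f8 were near the floor in 3T3-L1 adipocytes. E2f7 went from 898 to 51.6 and E2f8 from 517 to 18.6 in mean signal, changes of -3.82 and -3.95 (limma adjusted p = 7.33e-08 and 3.56e-09). In brown cells they were not called (limma adjusted p = 0.462 and 0.189). E2f2, an activating E2F, fell from 64.01 to 25.2 in 3T3-L1 cells and rose from 135 to 287 in brown cells (limma adjusted p = 0.00947 and 0.00983). The brown call was lost with a pseudocount of 1 (limma adjusted p = 0.073).

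Inhibitors of cyclin-dependent kinases, which keep cells from entering S phase, did not share a direction. Of 7 tested, 3 were called higher and 3 lower in 3T3-L1 cells, and 3 higher and 2 lower in brown cells. With so few genes these counts are near the shares of all tested genes. Those were 30.1% higher and 31.2% lower in 3T3-L1 cells, and 27.2% and 31.6% in brown cells. Cdkn1a, which encodes p21, rose by 0.71 ± 0.11 in 3T3-L1 cells, and its value in brown cells was 0.13 ± 0.11 (limma adjusted p = 0.000274 and 0.36). Cdkn1b, which encodes p27, fell by 1.41-fold in 3T3-L1 cells and rose by 1.60-fold in brown cells (limma adjusted p = 0.000479 and 6.16e-05). Cdkn2c, which encodes p18, rose in both, by 4.44-fold and 1.85-fold (limma adjusted p = 1.75e-08 and 1.79e-05).

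Some inhibitors separated the lines whatever the stage. Cdkn1c, which encodes p57, was at a mean of 3.04 in 3T3-L1 pre-adipocytes and 43.7 in 3T3-L1 adipocytes, near the floor of the arrays, and at 3306 and 7682 in the brown groups. Cdkn2a, the locus of p16 and p19, was at 1008 and 861 in 3T3-L1 cells and at 5314 and 3726 in brown cells. The difference between the lines was called for both genes and both stages (limma adjusted p from 7.67e-11 to 9.94e-07). Cdkn2b, which encodes p15, had its highest mean, 4175, in brown pre-adipocytes and fell to 601 in brown adipocytes, a change of -2.76 ± 0.072 (limma adjusted p = 9.29e-10).

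Of 12 checkpoint and replication stress genes tested, 9 were called lower and 1 higher in 3T3-L1 cells, and 1 lower and 6 higher in brown cells. The shares over all tested genes were 31.2% and 30.1%, and 31.6% and 27.2%, in the same order. Chek1, the kinase that answers stalled forks, fell by 8.31-fold in 3T3-L1 cells and rose by 1.27-fold in brown cells (limma adjusted p = 5.19e-09 and 0.0218). The brown direction of Chek1 turned with the mean of its probe sets (-0.25, limma adjusted p = 0.0703), and its call was lost without brown adipocyte array 1 or 3 or brown pre-adipocyte array 1 or 2 (limma adjusted p of 0.0568 to 0.0637). Wee1, which holds back entry into mitosis, fell by 1.64-fold in 3T3-L1 cells and rose by 2.16-fold in brown cells (limma adjusted p = 1.74e-05 and 6.98e-07).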

How the data were processed

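Total RNA of 4 groups of mouse cells was measured on 12 Affymetrix arrays with probes near transcript 3′ ends. Intensity values were deposited as linear signals per probe set. The submitters' processing notes name Affymetrix Expression Console; its version and summarisation method: not given in the sources used here. The mean after trimming 2% at each end was 500.003 to 500.004 on every array, so a change in total RNA per cell is hidden.

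Genes were named from the 34958 of 45101 probe sets with 1 symbol (932 had several, 9211 were not listed), and a gene was represented by its brightest probe set on average. Identifiers of 34754 probe sets matched a RefSeq gene table. Values were log2(signal + 16), and a gene was tested if it lay above the array's 40th percentile (32.9 to 41.2) on at least 3 arrays. The model was limma's (version 3.58.1, R 4.3.3) with 1 mean per group (lmFit and eBayes, 8 residual and 1.81 prior degrees of freedom), with two-sided p-values adjusted over 13753 genes in each of 5 comparisons. Promoter windows were searched with Python 3.11.15.

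The members and lists were chosen with earlier results of these data known. Values per array are given for the members with the largest and the smallest difference between lines in each role, and named genes of related lists are the 2 with the largest difference besides genes named for their roles. Other pseudocounts, filters, scalings, probe set rules, fits and thresholds were tried, as was leaving out each array.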

Additional observations from a re-analysis of the deposited data

Results flagged for a closer look

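The change with differentiation differed between the brown and the 3T3-L1 line, by limma's test of that difference, for all 35 replication members and for 21 of the 22 named genes of the related lists. Each value here is the brown change minus the 3T3-L1 change on the log2 scale. Among licensing genes it was 1.99 for Orc1, 1.82 for Orc6, 2.48 for Cdc6, 3.89 for Cdt1 and 2.74 for Gmnn. For the helicase subunits it was 3.23 for Mcm2, 4.07 for Mcm3, 3.09 for Mcm4, 4.87 for Mcm5, 3.89 for Mcm6 and 2.55 for Mcm7. The factors that activate the helicase had smaller values, 1.03 for Mcm10, 1.65 for Cdc45, 2.11 for Gins1 and 1.80 for Gins2.

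Polymerase and primase genes had differences of 3.91 for Pola1, 3.04 for Prim1, 1.63 for Prim2, 3.69 for Pole and 2.16 for Pold1. At the clamp the values were 2.06 for Pcna, 1.93 for Rfc3, 2.05 for Rfc4, 2.83 for Rfc5 and 2.05 for Rpa2. Fen1 and Lig1, which mature lagging strand fragments, had 1.86 and 2.45. Deoxynucleotide genes had 2.95 for Rrm1, 3.87 for Rrm2, 1.51 for Tyms and 3.75 for Tk1. Genes of methylation and chromatin copying had 4.53 for Uhrf1, 2.55 for Dnmt1 and 3.28 for Chaf1b, and the factor E2f1 had 1.40.

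In the related lists the difference was 4.16 for Dtl, 3.46 for Pole2, 3.27 for Chek1 and 1.80 for Wee1. Mitosis genes had 3.29 for Mki67, 2.53 for Top2a and 3.57 for Cdc20. The cyclins had 3.15 for Ccna2, 0.67 for Ccne1 and 2.12 for Ccne2. In the E2F and retinoblastoma families it was 2.03 for E2f2, 3.63 for E2f7, 3.73 for E2f8, 1.79 for Rbl1, 0.48 for Rbl2 and, in the opposite direction, -0.83 for Rb1. Kinase inhibitors had 1.17 for Cdkn1b and negative values of -0.58 for Cdkn1a, -2.002 for Cdkn2b and -1.25 for Cdkn2c. For Cdkn1c the value was -0.42 (limma adjusted p = 0.0372), but its 3T3-L1 pre-adipocyte signal lay below the 40th percentile, and with a pseudocount of 64 in place of 16 the sign turned (0.52, limma adjusted p = 0.00116), so no direction is drawn. That call was also lost when single arrays were left out, apart from the second brown adipocyte and the first 3T3-L1 adipocyte array (limma adjusted p of 0.0509 to 0.0742). For Cdkn2a the difference was -0.29 and was not called (limma adjusted p = 0.294).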

How the results depend on the processing

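Counts of members called lower in 3T3-L1 differentiation (35), higher in the difference between lines (35) and higher in brown than 3T3-L1 adipocytes (35) stayed within 1.5 times their value under all 27 alternatives. By gene, 34, 33 and 35 of the 35 were called in every setting that tested them (28 settings for 30 members, 27 for Cdc6, Dnmt1, Fen1, Mcm7 and Pole), the exceptions being E2f1 in 3T3-L1 cells and Mcm10 and Tyms in the difference between lines. In brown differentiation the members called higher numbered 2 with scaling to hybridization controls and 0 when 2-fold was required, beside 19.2% and 9.78% of all genes. Members called lower there numbered 6 with the mean of all probe sets, 6 at an adjusted p under 0.01, 0 at 2-fold, and 6 to 10 with single arrays left out. The shares of all genes called lower were 28.5%, 26.3%, 12.7% and 29.1% to 31.6%. Between pre-adipocytes the members called higher numbered 10 with equal array medians and 4 at 2-fold, beside 19.8% and 11.6% of all genes. Members called lower there numbered 1 with the mean of all probe sets and 0 at 2-fold, beside 20% and 6.35% of all genes. Changes of sign are listed here only for genes called under the main or the alternative setting. On that count, with equal array medians the pre-adipocyte difference turned negative for Mcm3 (-0.20, limma adjusted p = 0.0373), Mcm7 (-0.044), Pole (-0.037) and Dnmt1 (-0.043). The same held for Cdc20 (-0.016) and Wee1 (-0.24). Members never called in this comparison also reached values below 0 over the settings, such as -0.19 for Uhrf1 and -0.16 for Rfc3. Among named genes of related lists, the brown change of Chek1 turned to -0.25 with the mean of all probe sets and -0.074 with probe sets of specific design, the 3T3-L1 change of Rbl2 to -0.25 with hybridization control scaling, and the difference between lines of Cdkn1c to 0.52 with a pseudocount of 64. The cause of these changes was not tested, apart from the narrower thresholds. Scaling to hybridization controls called 21.4% of all genes higher and 41.0% lower in 3T3-L1 differentiation, 19.2% and 40.9% in brown differentiation, and 35.6% and 23.2% between adipocytes. Replicate numbers did not pair the arrays (correlations of deviations from -0.029 to 0.067). With the replicate block, 35 members were called lower in 3T3-L1 differentiation, 6 higher and 9 lower in brown differentiation, and 19 higher and 3 lower between pre-adipocytes. The shares of all genes were 30.9%, then 26.7% and 31.3%, then 30.8% and 23.4%, in the same order. Signal near the floor limits the fall of Tyms in 3T3-L1 cells.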
